A study of Mus musculus with 36 samples.

Results

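Endothelial-high and endothelial-low tumours are 9 and 9 of the 30 Lewis lung carcinoma tumours of this series, set apart by the level of 5 endothelial genes. The tumours arose from LLC, a mouse lung carcinoma line, and their hosts were male and either young or middle-aged. The irradiated hosts had received 5 exposures of 0.2 Gy of 56Fe, an ion found in cosmic rays, and the others had none. RNA came from small pieces of each tumour, so a piece stands for its tumour here. Of the tumours, 10 came from young unirradiated, 8 from young irradiated, 7 from middle-aged unirradiated and 5 from middle-aged irradiated mice. The other 6 of the 36 arrays held RNA of LLC cells. No source used here gives the ages, the mouse strain, the site of implantation or the interval between irradiation and tumour growth. The design text speaks of biological replicates, and no label says whether tumours came from separate animals, so p-values measure only the spread between these samples.

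The members were chosen by measured values. The 28 tumour arrays whose 75th percentile of unnormalized signal was over 110 were kept. They were ranked by the mean log2 of the authors' normalized values of Cdh5, Esam, Robo4, Emcn and Sox18, and the 9 highest were set against the 9 lowest, with 10 tumours between them. Every value of these arrays shares its source with the ranking. Differences between the sets are therefore given as descriptions, with a standard error and no test, and only the groups of the labels were tested.

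A solid tumour is fed by vessels lined by endothelial cells, which are joined by VE-cadherin (Cdh5) and Claudin-5 and covered by pericytes. Vascular endothelial growth factor (VEGF), made by tumour and host cells under low oxygen, acts on receptors of the endothelium and starts the growth of sprouts led by tip cells. Notch receptors and ligands divide the cells of a sprout into tip and stalk, and the angiopoietins act through the receptor Tie2 (Tek) on how stable a vessel is. LLC tumours have long served as a model of this process in mice.

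The score of the high tumours ran from 9.09 to 9.78, with a median of 9.14, and that of the low tumours from 8.35 to 8.77, with a median of 8.71. The cuts fell in a continuous range. Young irradiated replicate 1 was the last tumour inside the high set at 9.09, and middle-aged unirradiated replicate 6 was the first outside at 9.05. At the lower cut, middle-aged irradiated replicate 1 lay just outside at 8.78 and young unirradiated replicate 3 just inside at 8.77. Young unirradiated replicate 2 stood at the top with 9.78, followed by young unirradiated replicate 10 at 9.44 and young irradiated replicate 7 at 9.25. Middle-aged unirradiated replicate 3 stood at the bottom with 8.35.

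**Figure D1:**
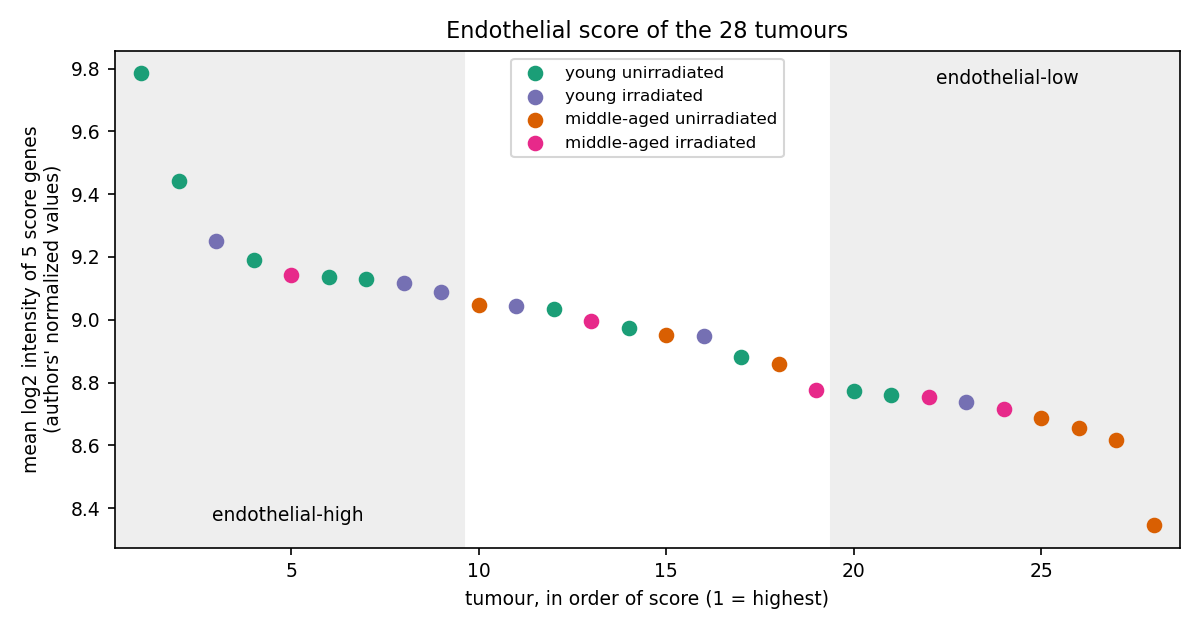
Endothelial score of the 28 tumours, in order from the highest to the lowest, coloured by the age and treatment of the host; the y axis is the mean log2 intensity of the 5 score genes in the authors' normalized values. The 9 tumours in each shaded band are the endothelial-high and endothelial-low sets, and 8 of the 9 high tumours came from young mice.

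Host age and the sets were not balanced. The high set held 5 young unirradiated, 3 young irradiated, 0 middle-aged unirradiated and 1 middle-aged irradiated tumour. The low set held 2 young unirradiated, 1 young irradiated, 4 middle-aged unirradiated and 2 middle-aged irradiated tumours. High tumours were thus from young mice in 8 of 9 cases and low tumours in 3 of 9, whereas 4 of 9 high and 3 of 9 low tumours came from irradiated mice. The part of age in the differences that follow was not tested. A second fit also held the 4 groups of age and treatment and so compares high with low tumours within a group. Middle-aged unirradiated mice gave 0 high and 4 low tumours, so those 4, the lowest in score among them, add nothing to this fit's differences. Its differences are given for the genes without overlap and for the gene lists, and for other genes where they depart most from the plain ones. Young hosts had mean scores of 9.11 ± 0.31 (SD, n = 10 tumours) without and 9.03 ± 0.17 (SD, n = 6 tumours) with irradiation. For middle-aged hosts the means were 8.74 ± 0.24 (SD, n = 7 tumours) and 8.88 ± 0.18 (SD, n = 5 tumours).

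Array brightness overlapped between the sets. The 75th percentile of unnormalized signal ran from 160 to 334 in the high and from 175 to 1123 in the low tumours, and between 17896 and 19533 probes were detected on these 18 arrays. Young irradiated replicate 2, in the low set, was the bright array at 1123. Young irradiated replicates 6 and 8 were left out by the rule, at 91.6 and 102, against 159.9 for the dimmest array kept. Their scores were 9.39 and 9.08. The highest tumours in score also had the dimmest arrays of the high set. These were young unirradiated replicate 2 at 159.9, young unirradiated replicate 10 at 190.9 and young irradiated replicate 7 at 185.8. The part of brightness in the score was not tested. All values below are log2 intensities after background correction and quantile normalization, unless said otherwise. The number of arrays limits their precision.

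The score genes are described first, since they define the sets. In the high tumours Esam, an adhesion molecule of endothelial junctions, ran from 9.85 to 10.74 with a median of 10.05, and in the low tumours from 9.01 to 9.62 with a median of 9.46. Robo4, an endothelial Roundabout receptor, ran from 9.03 to 9.72 (median 9.18) and from 8.22 to 8.66 (median 8.55). Both sets were apart for these genes. For Cdh5, Emcn (endomucin, a surface sialomucin of capillaries and veins) and Sox18 (an endothelial transcription factor) some low tumours reached into the range of the high ones. The means differed by 0.89 for Sox18, 0.83 for Emcn, 0.74 for Robo4, 0.68 for Esam and 0.55 for Cdh5, in log2 units. Esam, Robo4, Emcn and Sox18 were detected on 0 of 6 arrays of LLC cells and Cdh5 on 1 of 6, and all were detected on 28 of 28 tumours.

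Beyond the score genes, 10 of 10859 genes (0.0921%) were higher in every high than in every low tumour, and 1 (0.00921%) was lower without overlap. The 10 were Ccn2, Shroom2, Akap12, Gpihbp1, Fhdc1, Sema3f, Notch4, Tle6, Dock6 and Vamp3, and the one lower gene was Ipo8. In RNA of whole tumours, fewer endothelial cells and less RNA per endothelial cell cannot be told apart. Of the 16 score and non-overlapping genes, Robo4, Emcn, Notch4, Dock6 and Ipo8 had a single window around the transcription start in the RefSeq promoter table (build GRCm38.p6). The windows run from 250 bases before to 50 bases after the start. They are Robo4 at chr9:37401722-37402021 on the plus strand, Emcn at chr3:137340828-137341127 on the plus strand, Notch4 at chr17:34564045-34564344 on the plus strand, Dock6 at chr9:21852586-21852885 on the minus strand and Ipo8 at chr6:148831418-148831717 on the minus strand. They are shown so that genes that differed in opposite directions can be read side by side, 5′ to 3′, with matches to AGGAAG on either strand, a form of the ETS factor site, in capitals.
Robo4: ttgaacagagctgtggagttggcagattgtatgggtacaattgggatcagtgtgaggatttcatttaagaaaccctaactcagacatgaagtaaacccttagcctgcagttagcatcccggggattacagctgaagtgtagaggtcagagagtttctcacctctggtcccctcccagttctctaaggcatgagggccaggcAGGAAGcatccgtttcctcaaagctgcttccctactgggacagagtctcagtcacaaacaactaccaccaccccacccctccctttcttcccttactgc
Emcn: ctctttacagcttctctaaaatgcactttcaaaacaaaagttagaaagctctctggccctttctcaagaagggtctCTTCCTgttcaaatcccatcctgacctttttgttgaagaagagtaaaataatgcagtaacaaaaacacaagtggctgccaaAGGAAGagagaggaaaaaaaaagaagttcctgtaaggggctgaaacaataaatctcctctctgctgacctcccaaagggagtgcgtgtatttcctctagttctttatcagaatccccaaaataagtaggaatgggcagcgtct
Notch4: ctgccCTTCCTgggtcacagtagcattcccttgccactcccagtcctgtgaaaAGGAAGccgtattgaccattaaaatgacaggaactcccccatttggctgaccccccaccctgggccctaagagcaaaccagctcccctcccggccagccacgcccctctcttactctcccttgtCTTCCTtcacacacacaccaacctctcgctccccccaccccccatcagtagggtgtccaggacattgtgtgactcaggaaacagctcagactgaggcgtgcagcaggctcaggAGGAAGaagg
Dock6: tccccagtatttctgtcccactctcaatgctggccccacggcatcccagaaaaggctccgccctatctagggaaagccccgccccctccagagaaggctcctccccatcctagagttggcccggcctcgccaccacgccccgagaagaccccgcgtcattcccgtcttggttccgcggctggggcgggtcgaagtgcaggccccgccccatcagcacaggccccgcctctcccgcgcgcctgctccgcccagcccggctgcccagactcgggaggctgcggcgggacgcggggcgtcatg
Ipo8: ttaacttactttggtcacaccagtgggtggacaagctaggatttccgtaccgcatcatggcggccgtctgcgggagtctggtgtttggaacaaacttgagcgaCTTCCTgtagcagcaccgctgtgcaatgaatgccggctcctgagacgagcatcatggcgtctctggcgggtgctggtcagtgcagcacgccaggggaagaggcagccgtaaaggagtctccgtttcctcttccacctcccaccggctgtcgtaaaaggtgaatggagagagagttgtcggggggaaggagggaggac

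The AGGAAG letters occurred 4 times in the Notch4 window, 2 times in that of Emcn, once in those of Robo4 and Ipo8 and not in that of Dock6. Thus 4 of 5 windows held the hexamer, against 35.4% of all 32851 windows of that length, and Ipo8, the gene that was lower in the high tumours, was among them. On both strands GGAATG, a TEAD factor site, was found in 3 of the 5 windows (14.7% of all), ACAATG, a SOX site, in 1 (12.6% of all), and ACGTG, a hypoxia-inducible factor site, in 0 (19.6% of all). No base of these windows lay under more than 1 match. The matches describe letters only.

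Ccn2 (connective tissue growth factor, a secreted matrix-associated protein) had the largest of these differences. It ran from 9.67 to 11.95 in the high tumours, with a median of 10.76, and from 8.42 to 9.63 in the low tumours, with a median of 9.27. The difference was 1.46 ± 0.28 (SE, n = 9 and 9), or 1.43 ± 0.34 within age and treatment. The sets were separated by a narrow gap, since young irradiated replicate 1 (9.67) lay just above middle-aged irradiated replicate 3 (9.63). The LLC cells lay at 7.98 to 8.83 and had the gene detected on 6 of 6 arrays.

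Shroom2, an actin-binding protein of cell shape, lay between 7.12 and 7.83 in the high tumours (median 7.53) and between 5.51 and 6.76 in the low ones (median 5.99). Its difference was 1.33 ± 0.16 (SE, n = 9 and 9), and 1.11 ± 0.19 within age and treatment, but 0.67 with the authors' values and 0.62 without background correction. Shroom2 was not detected on every one of these 18 tumours. Gpihbp1, which carries lipoprotein lipase to the lumen of capillaries, ran from 8.28 to 9.62 (median 8.80) and from 7.32 to 8.14 (median 8.04). The difference of Gpihbp1 was 0.98 ± 0.16 and 0.97 ± 0.20 within groups. Both genes were detected on 0 of 6 cell arrays, as was the case for 4 of the 5 score genes.

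Notch4, a Notch receptor found mainly on endothelium, ran from 9.80 to 10.51 in the high tumours (median 9.97) and from 8.56 to 9.62 in the low tumours (median 9.33). It differed by 0.79 ± 0.14 (SE, n = 9 and 9), or 0.72 ± 0.18 within groups, with a smaller difference of 0.39 for its other, dimmer probe. Middle-aged unirradiated replicate 3 was lowest of all, as it was in score. The cells held Notch4 at no more than 6.64, below every one of these tumours.

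Sema3f, a secreted semaphorin that binds neuropilin-2, ran from 8.53 to 9.40 (median 8.85) in the high and from 7.40 to 8.48 (median 8.09) in the low tumours. The difference was 0.91 ± 0.15 (SE, n = 9 and 9), with 0.93 for its other probe, and 0.82 ± 0.18 within groups. Dock6, an exchange factor for the small GTPases Rac1 and Cdc42, ran from 8.41 to 9.19 (median 8.59) and from 7.78 to 8.41 (median 8.29). The difference of Dock6 was 0.51 ± 0.11, and 0.57 ± 0.14 within groups, and its sets touched at 8.41. Both genes were detected on 6 of 6 cell arrays, at 7.36 to 7.88 for Sema3f and 6.71 to 7.17 for Dock6.

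Akap12, a scaffold of protein kinases, ran from 6.16 to 7.38 in the high tumours (median 6.47) and from 5.25 to 5.94 in the low ones (median 5.81), a difference of 0.98 ± 0.16 (SE, n = 9 and 9). Fhdc1, a formin-related protein, ran from 6.11 to 8.05 (median 6.45) and from 5.55 to 6.02 (median 5.80), a difference of 0.92 ± 0.24. Tle6, a member of the Groucho family, ran from 8.17 to 8.99 (median 8.45) and from 7.41 to 8.16 (median 7.91), a difference of 0.64 ± 0.13. Within age and treatment the differences were 0.91 ± 0.21 for Akap12, 0.86 ± 0.31 for Fhdc1 and 0.52 ± 0.17 for Tle6. On LLC cells these genes were brighter than in every low tumour: 6.70 to 7.31 for Akap12, 7.12 to 7.47 for Fhdc1 and 8.49 to 8.68 for Tle6. Akap12 and Fhdc1 were detected on only 6 of 9 low tumours, and without background correction their differences were 0.38 and 0.39. For Fhdc1 the high mean rested on young unirradiated replicates 2 and 10, at 8.05 and 7.74, since the next high tumour had 6.59.

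Vamp3, a vesicle fusion protein, and Ipo8, an importin of nuclear transport, had small differences with little spread. Vamp3 ran from 11.35 to 11.74 in the high tumours (median 11.48) and from 11.01 to 11.35 in the low ones (median 11.26), a difference of 0.25 ± 0.06 (SE, n = 9 and 9) and of 0.06 for its other probe. Ipo8 ran from 9.23 to 9.56 (median 9.50) and from 9.61 to 10.32 (median 9.74), a difference of -0.33 ± 0.08. The cells lay at 11.14 to 11.32 for Vamp3 and at 9.93 to 10.27 for Ipo8. Within age and treatment the differences were 0.18 ± 0.06 and -0.44 ± 0.09.

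**Figure D2:**
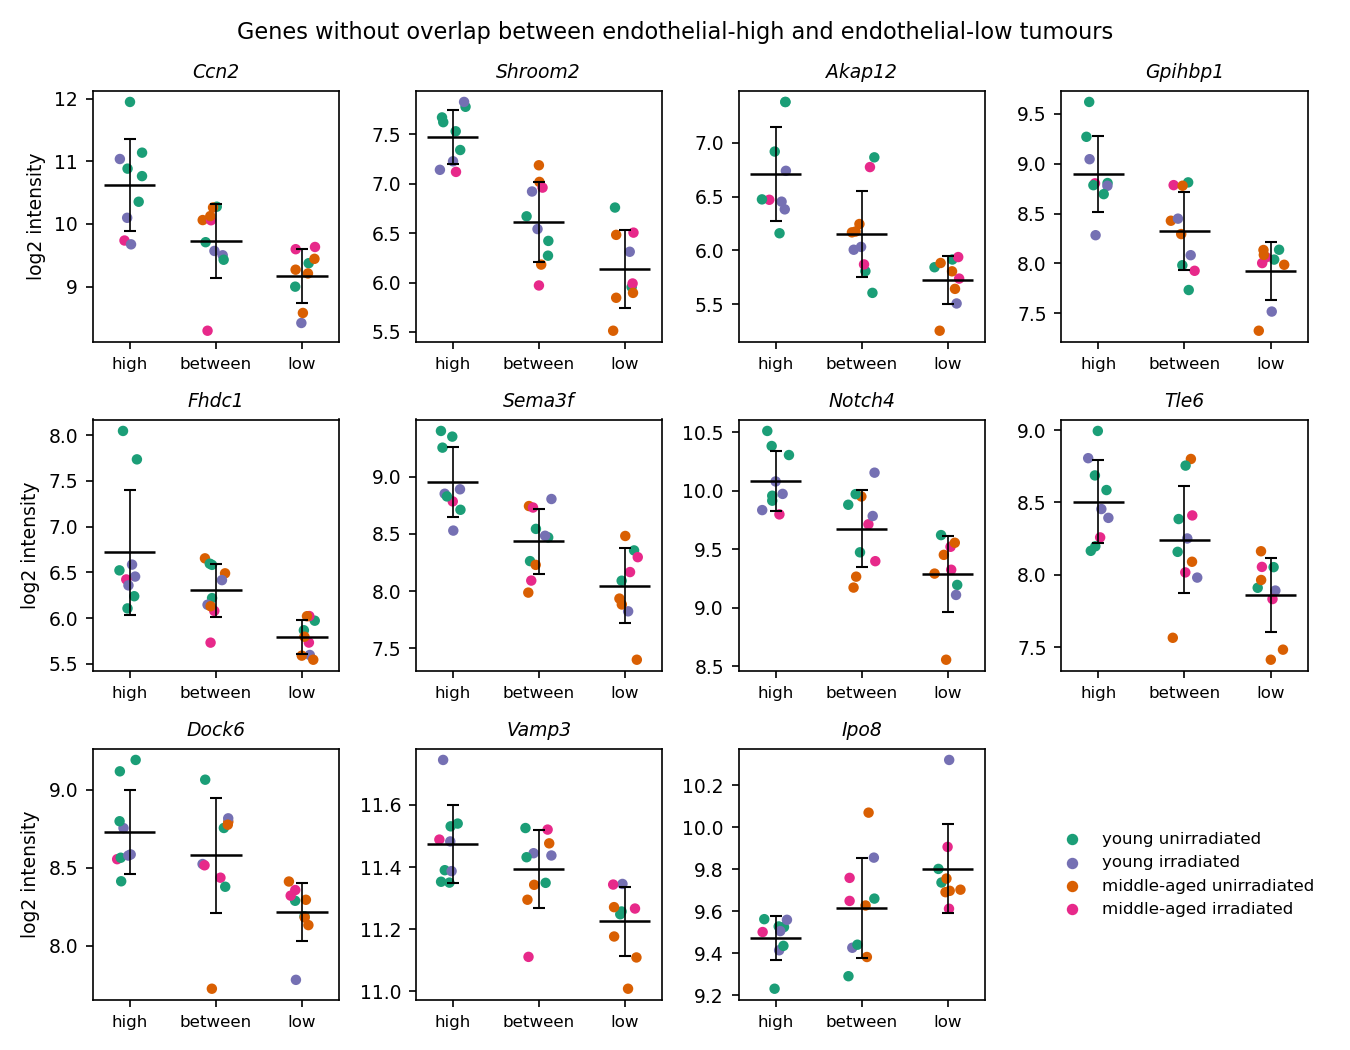
Log2 intensity of the 11 genes whose endothelial-high and endothelial-low tumours did not overlap, with the 10 tumours between them; points are tumours coloured by the age and treatment of the host, bars are the mean and its SD. The y axes differ between genes and do not start at 0. Ipo8 is the gene with the reverse order, at 9.23 to 9.56 in the high and 9.61 to 10.32 in the low tumours.

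The number of genes without overlap depended on the cut and on the scaling. It was 117 higher and 139 lower for the top 6 against the bottom 6 tumours and 0 in each direction for the top 14 against the bottom 14. With the authors' normalized values 17 genes were higher and 1 lower, and these held each of the genes above except Vamp3. With median scaling in place of quantile normalization 4 were higher and 3 lower, and only Shroom2, Akap12 and Fhdc1 remained. That scaling moved the median difference of all genes from -0.0065 to -0.14, so that Ccn2 stood at 1.28, Notch4 at 0.60 and Ipo8 at -0.51. With the mean over detected probes in place of the brightest probe, 6 were higher and 4 lower. Ccn2, Gpihbp1, Sema3f, Notch4 and Vamp3 then overlapped, and these are the 5 of the 11 genes with another detected probe. The directions of the 11 genes were the same in every setting that held them.

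The study's own groups were tested apart from the ranking, on the same 28 tumours. Middle-aged against young tumours of unirradiated mice (7 against 10) had 29 of 10864 genes called by limma at an adjusted p under 0.05 (0.267%), 8 higher and 21 lower, with 1981 at an unadjusted p under 0.05. The count did not hold: it was 2 with the authors' values, 2 without background correction, 1 with median scaling, 1 with the replicate number as a block, and 0 over all 30 tumours or without bright arrays. The 11 genes gave 0 calls, and 7 of them had an unadjusted p under 0.05. The 10 higher genes lay between -0.72 for Ccn2 (limma adjusted p 0.291) and -0.16 for Vamp3 (0.292), and the smallest limma adjusted p was 0.104, for Notch4 at -0.60. These genes were chosen on the same tumours and the high set was mostly young, so values below 0 are not independent of that choice. The parts of the choice and of age cannot be told apart here. Over all genes 49.3% were below 0 in this contrast.

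Age in irradiated mice (5 against 6) had 0% of genes called by limma, with 485 at an unadjusted p under 0.05. Irradiation had 0% called in young mice (6 against 10; 490 unadjusted) and 0% in middle-aged mice (5 against 7; 952 unadjusted). With irradiation Ccn2 was at -0.57 in the young and -0.10 in the middle-aged hosts (limma adjusted p 0.923 and 0.965), and Notch4 at -0.10 and 0.23 (0.966 and 0.777). The difference between the irradiation effects of the 2 ages was also tested for the 11 genes, and 0 passed, with a smallest limma adjusted p of 0.727. These contrasts share groups of tumours with each other, so their values are not independent.

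By size alone, 280 genes (2.58%) were higher and 145 (1.34%) lower by at least 0.5 in the high tumours, a mark set after the data were seen. Under median scaling these counts were 118 and 535, and with the authors' values 194 and 27, so the balance of higher and lower genes turned with the scaling. Over all genes the median difference was -0.0065 and 48.5% lay above 0 (25.3% under median scaling and 62.6% with the authors' values). The lists below are read against these figures and are not tested. Members were tested where detected on at least 5 of the 28 tumours.

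Endothelial junction and surface proteins beyond the score genes were higher in the high tumours. Of 26 members with a probe 18 passed the detection filter, 17 of these were above 0, 8 were at or over 0.5 and 0 at or under -0.5, and the median was 0.44 (0.34 within age and treatment, and 0.26 under median scaling). Their mean level did not overlap, at 8.07 to 8.55 in the high and 7.43 to 7.91 in the low tumours. Cldn5, the tight junction protein Claudin-5, ran from 8.93 to 10.58 (median 9.34) in the high and from 7.51 to 8.98 (median 8.44) in the low tumours, a difference of 1.12 ± 0.26 (SE, n = 9 and 9). The sets overlapped by a single tumour on each side. Plvap, the protein of endothelial fenestrae and caveolae, ran from 8.80 to 10.53 (median 9.43) and from 7.87 to 9.03 (median 8.61), a difference of 0.88 ± 0.19 (0.92 within groups). Vwf (von Willebrand factor) differed by 0.88 ± 0.26, Icam2 (an adhesion molecule) by 0.76 ± 0.13, Tm4sf1 by 0.70 ± 0.27 (0.31 within groups) and Pecam1 (CD31) by 0.51. The receptor Cd93 stood at -0.08. Tm4sf1 was also present on 6 of 6 LLC cell arrays and detected on 3 of 9 low tumours.

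Endothelial transcription factors and signalling adaptors did not, as a list, follow the surface markers. Of the tested members 13 were detected on at least 1 array of LLC cells, against 7 of the 18 junction and surface proteins. Of 23 tested members 10 were above 0, with a median of -0.05 (0.01 within age and treatment and 0.0044 with the authors' values), next to -0.0065 over all genes. Rasip1, an adaptor of endothelial lumen formation, was the one member at or over 0.5. It ran from 6.29 to 7.57 (median 6.87) in the high and from 5.49 to 6.48 (median 6.20) in the low tumours, a difference of 0.79 ± 0.17 (SE, n = 9 and 9) and of 0.59 within groups. Bcl6b, an endothelial repressor, was at 0.49 ± 0.13 and Tcf4, a widely expressed factor that LLC cells also hold, at -0.34 ± 0.15 (-0.51 within groups). Tie1 (0.48), She (0.41), Sox17 (0.36) and Sox7 (0.25) were also above 0. Mef2c (-0.33), Elk3 (-0.32) and Lyl1 (-0.28) were among the 13 members below it. The junction and transcription factor lists and those of VEGF and angiopoietin ligands and receptors, tip cells and vessel types held 86 distinct tested genes. Of these 61 were above 0, 21 at or over 0.5 and 0 at or under -0.5, with a median of 0.25. Ligands such as Vegfa, which LLC cells also hold, are counted among them.

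**Figure D3:**
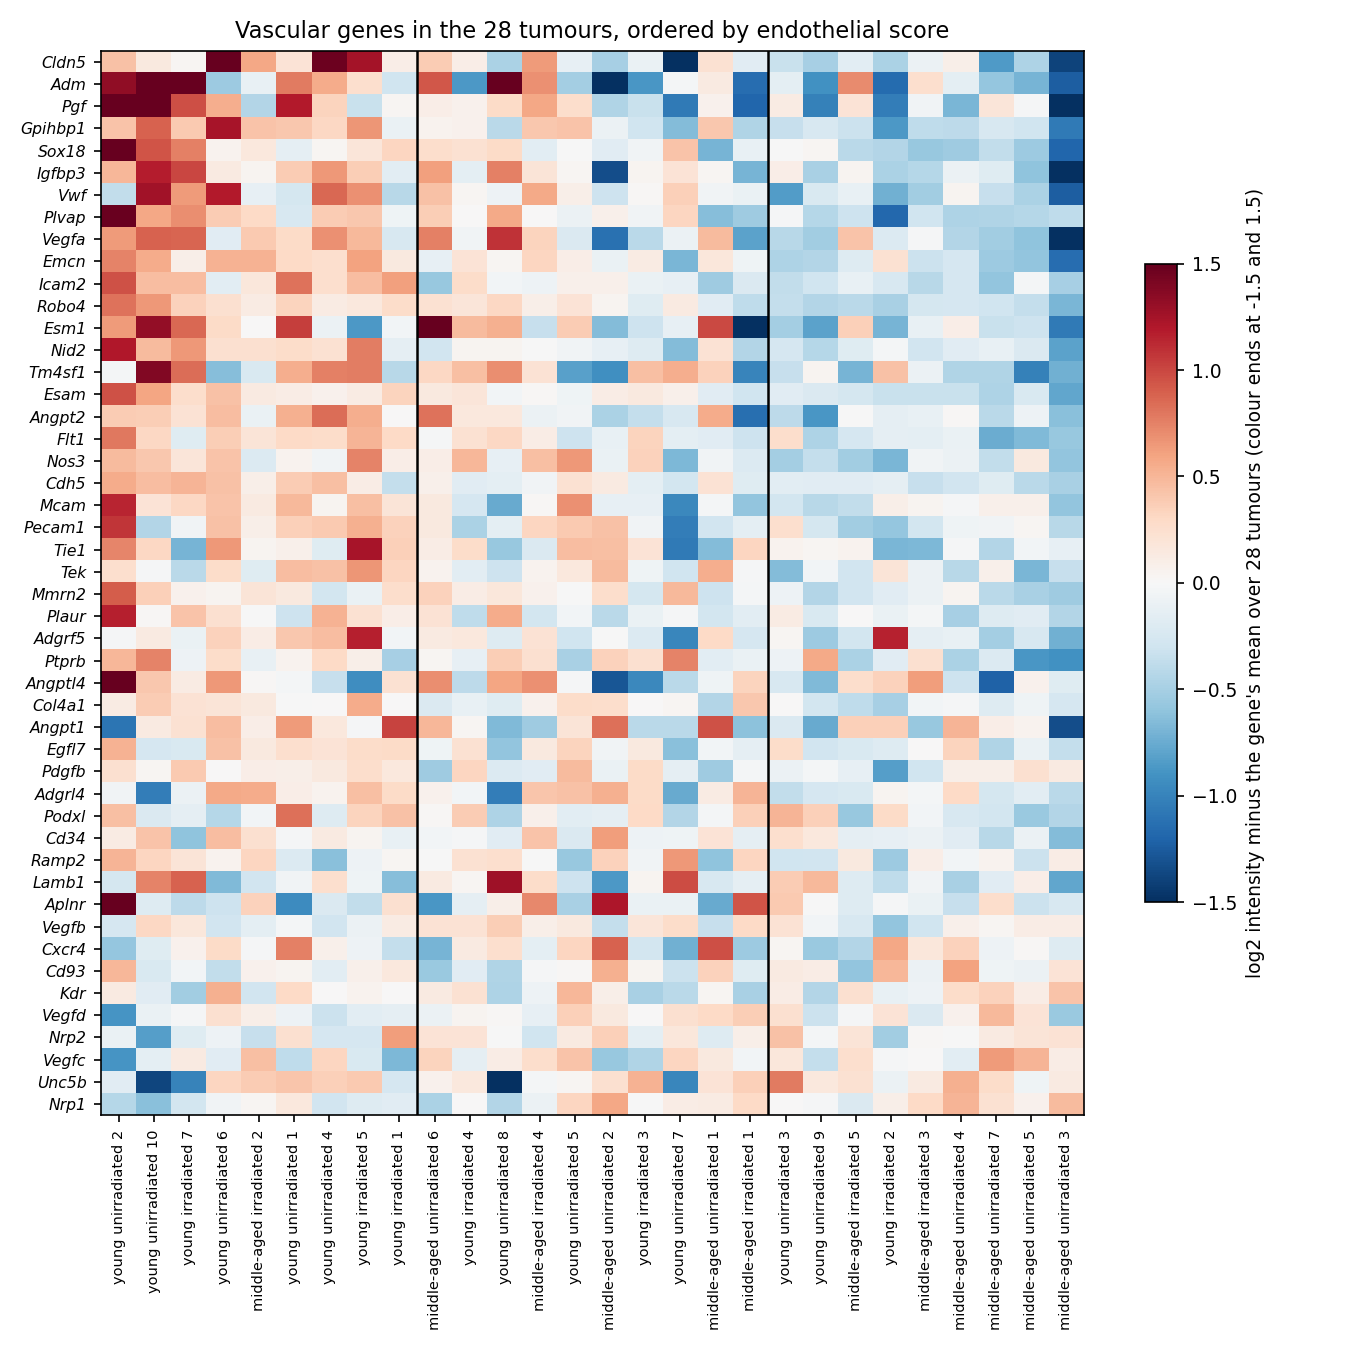
Log2 intensity of the score genes and of junction, VEGF, angiopoietin and tip cell genes in the 28 tumours, as the difference from each gene's mean; tumours run from the highest score at the left to the lowest at the right, with black lines at the borders of the sets, and genes from the largest to the smallest difference. Red is higher and blue lower. Cldn5 (1.12) is the top row and Nrp1 (-0.37) the lowest.

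Among the ligands of vessel growth, 6 of 8 tested members were above 0, with a median of 0.37 (0.30 within age and treatment). Vegfa ran from 9.88 to 11.01 (median 10.61) in the high and from 8.61 to 10.56 (median 9.68) in the low tumours, a difference of 0.85 ± 0.22 (SE, n = 9 and 9), of 0.96 for its other probe and of 0.66 within groups. Pgf, placental growth factor, ran from 6.14 to 8.29 (median 7.12) and from 4.93 to 6.77 (median 6.52), a difference of 1.06 ± 0.35. Angpt2, the angiopoietin of sprouting vessels, ran from 10.10 to 11.04 (median 10.58) and from 9.33 to 10.21 (median 10.07), a difference of 0.65 ± 0.14. The sets overlapped for each of these genes, and Vegfa and Angpt2 were detected on 6 of 6 arrays of LLC cells while Pgf was on 0. Vegfc, a ligand of lymphatic vessels, was at -0.30 ± 0.18, and at -0.06 within groups.

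The receptors were divided. Flt1 (VEGF receptor 1) ran from 9.10 to 10.07 (median 9.58) in the high and from 8.53 to 9.54 (median 9.03) in the low tumours, a difference of 0.63 ± 0.14 (SE, n = 9 and 9) and of 0.44 within groups. Tie1 and Tek, the receptors of the angiopoietin system, were at 0.48 ± 0.21 and 0.45 ± 0.15. Kdr (VEGF receptor 2) was at -0.09 ± 0.14, and at 0.07 within groups, with detection on only 3 of 9 high and 4 of 9 low tumours. The co-receptors Nrp1 and Nrp2 were at -0.37 ± 0.11 and -0.20 ± 0.16 (-0.21 and -0.15 within groups). Thus 3 of 6 receptors were above 0, with a median of 0.18 (0.19 within age and treatment). Flt1, Nrp1 and Nrp2 were also detected on 6 of 6 cell arrays.

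Tip cell and sprout genes were higher as a list, with 11 of 12 tested members above 0, 6 at or over 0.5 and a median of 0.48 (0.49 within age and treatment). Adm (adrenomedullin, a vessel-forming peptide that low oxygen induces) differed by 1.11 ± 0.39, Igfbp3 by 0.88 ± 0.23, Esm1 (a secreted proteoglycan of tip cells) by 0.73 ± 0.27, Nid2 (a basement membrane protein) by 0.71 ± 0.15 and Mcam by 0.53 ± 0.14. For Nid2 and Mcam 8 of 9 high tumours lay above every low one. The netrin receptor Unc5b was at -0.34. Of the 12 tested members 9 were detected on at least 1 array of LLC cells. Esm1 was detected on 0 of 6 cell arrays and Adm on 6. Under median scaling the list median was 0.34.

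Genes of vessel types differed among themselves. The median was 0.42 for 6 capillary genes, but 0.21 within age and treatment, 0.20 among young tumours alone and 0.27 with the authors' values. Of these genes Gpihbp1 was named above and Meox2, a vascular homeobox factor, was at 0.57 ± 0.18 (0.23 within groups). The median was 0.16 for 8 arterial genes, 0.04 for 9 venous and leukocyte adhesion genes and 0.17 for 4 lymphatic genes, and 0.12, -0.04 and 0.21 within age and treatment. Of 10 genes of the Notch pathway 8 were above 0, with a median of 0.16 (0.21 within groups), Notch4 leading and Notch1 next at 0.48 ± 0.24 (0.26 within groups). The 12 genes of BMP and TGF-beta signalling had a median of 0.03 (0.0078 within groups), with Id1, a target of BMP signals, at 0.38 ± 0.16. Under median scaling the arterial, venous, lymphatic, Notch and BMP medians ran from -0.10 to -0.0044, beside -0.14 for all genes.

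Cells and matrix around vessels followed in part. Of 13 pericyte and smooth muscle genes 12 were above 0, but the median was 0.13 (0.17 within groups) and 3 were at or over 0.5. That median was 0.071 without middle-aged irradiated replicate 2 and 0.20 without young irradiated replicate 1. Rgs5, a pericyte regulator of G protein signals, was at -0.31 ± 0.23 and Acta2, smooth muscle actin, at 0.42 ± 0.28 (-0.03 and 0.25 within groups). Des (desmin) had 0.69 ± 0.51, and -0.0032 within age and treatment. Its highest values, 10.22 in young irradiated replicate 1 and 8.48 in young unirradiated replicate 3, lay in the tumours with the highest skeletal muscle means of their sets. Of 13 basement membrane genes 9 were above 0 and 1, Nid2, was at or over 0.5, with a median of 0.12 (0.18 within groups and -0.03 under median scaling). Agrn, Hspg2, Lama5 and Nid1 lay between -0.20 and -0.08. The type IV collagen chains Col4a2 and Col4a1 were higher by 0.48 ± 0.10 and 0.37 ± 0.09, and 8 and 7 of 9 high tumours lay above every low tumour. LLC cells held both chains on 6 of 6 arrays.

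Transcripts of other cells moved with the sets. Neutrophil markers were above 0 for 11 of 11 tested members, 10 of them at or over 0.5, with a median of 0.69 (0.53 within age and treatment), including S100a9 at 1.08 ± 0.47 (0.77 within groups), the decoy receptor Il1r2 at 0.91 ± 0.31 (0.47 within groups) and Retnlg at 1.46 ± 0.55. The mean level of that list ran from 7.20 to 9.04 in the high and from 6.53 to 8.37 in the low tumours. Its median was 0.47 with the authors' values and 0.42 without background correction. Of its 11 members 5 were detected on all 9 low tumours and 3 on fewer than 3 of them. The filter can keep members seen mainly in the high tumours, and its part in these counts was not tested. Red blood cell genes were above 0 for 7 of 7, with a median of 0.41, which was 0.27 within age and treatment, 0.83 with the authors' values and 0.62 without young irradiated replicate 5. Their list means ran from 8.45 to 12.04 in the high and from 8.45 to 10.55 in the low tumours, and probes of near-identical globin genes can share signal. Platelet genes had a median of 0.46 (6 of 6 above 0), 0.23 within age and treatment, 0.19 with the authors' values and 0.17 without background correction. Of the 6 only 1 was detected on all 9 low tumours. The part of blood content in the endothelial differences was not tested.

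Macrophage and interferon genes had the reverse order. Of 16 macrophage markers 13 were below 0, with a median of -0.34 (-0.34 within age and treatment, but -0.16 with the authors' values). Cx3cr1, the fractalkine receptor, was at -1.11 ± 0.32 (-0.57 within groups). The complement genes C1qc and C1qb were at -0.52 ± 0.13 and -0.47 ± 0.11 (each -0.34 within groups), with 7 and 6 of 9 low tumours above every high one. List means ran from 9.49 to 9.96 in the high and from 9.79 to 10.50 in the low tumours. Of 12 interferon-response genes 11 were below 0 and 7 at or under -0.5, with a median of -0.58 (-0.55 within groups and -0.38 with the authors' values). Isg15, an antiviral ubiquitin-like protein, was at -1.06 ± 0.38 (-1.02 within groups), and Cxcl9, a chemokine that interferon induces, at -1.44 ± 0.76 (-0.48 within groups).

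Hypoxia-response genes were above 0 for 17 of 17 tested members, with a median of 0.35 (0.38 within age and treatment) and 7 at or over 0.5. Vegfa and Adm, which the lists above hold too, belong to them. Car9, a carbonic anhydrase under the control of low oxygen, ran from 6.95 to 10.09 (median 8.53) in the high and from 6.41 to 8.00 (median 7.44) in the low tumours, a difference of 1.07 ± 0.37 (SE, n = 9 and 9) and of 0.98 within groups. Ankrd37 was at 0.77 ± 0.24 and the glucose transporter Slc2a1 at 0.35. Immediate early genes had a median of 0.40 (0.56 within age and treatment), with Atf3 at 0.78 ± 0.35 and Egr1 at 0.65 ± 0.28. Cell cycle genes had a median of 0.10, and -0.02 within age and treatment as well as under median scaling.

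MHC class II genes changed sign once the labels' groups were in the fit. All 7 members were below 0 across the sets, with a median of -0.27, and all 7 above 0 within age and treatment, at 0.34. H2-Ab1 went from -0.29 ± 0.39 to 0.44. That fit draws no difference from the 4 low tumours of middle-aged unirradiated mice, whose class II means ran from 8.55 to 10.47. Means of the other low tumours ran from 8.34 to 8.62, and those of the high tumours from 7.77 to 9.69. Skeletal muscle genes had a median of -0.03, and -0.78 within age and treatment, with list means of 5.42 to 11.34 in the high and 5.41 to 9.35 in the low tumours. Fibroblast and collagen genes had a median of -0.08, which was 0.02 within age and treatment and 0.10 with the authors' values. Lum (lumican) was at -0.72 ± 0.25, and Col1a1 at -0.65 ± 0.59, and at 0.01 among young tumours alone. Col1a1 reached 12.96 in young unirradiated replicate 2, whereas no other high tumour was above 9.24.

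**Figure D4:**
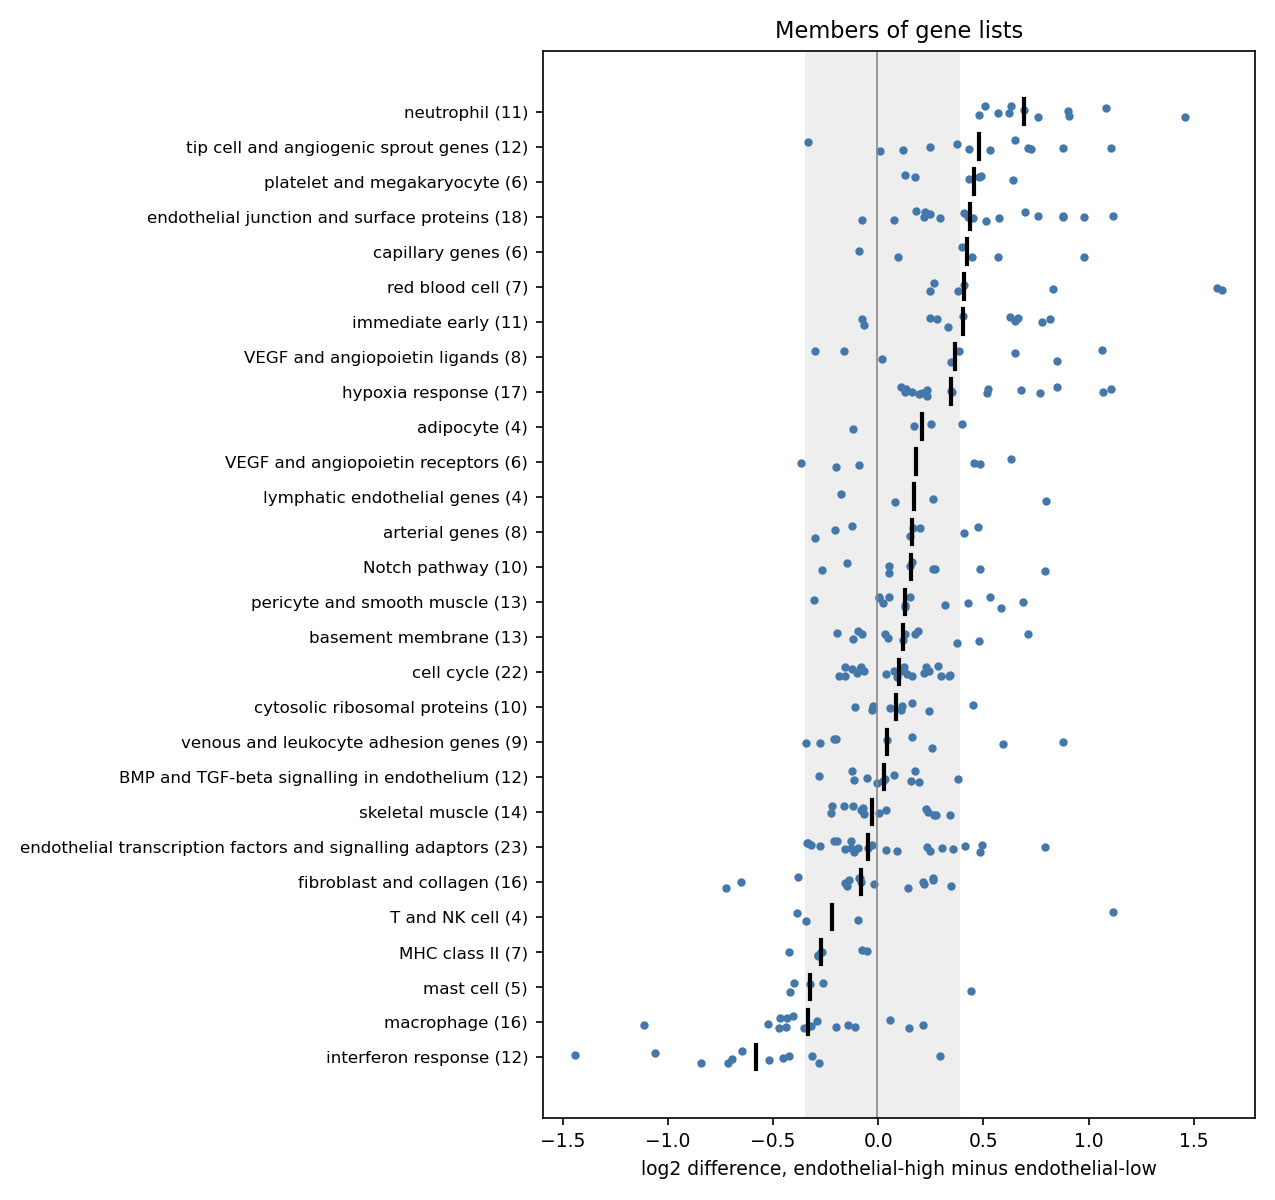
Difference between endothelial-high and endothelial-low tumours, in log2 units, for each tested member of the gene lists with at least 4 of them (number in brackets); points are genes and black bars the list medians. The grey band runs from -0.34 to 0.38, between which most of the tested genes lie, and the grey line is their median. Neutrophil genes have the highest median (0.69) and interferon-response genes the lowest (-0.58). With the authors' values red blood cell genes (0.83) lay above neutrophil genes (0.47), as they did with median scaling (0.67 and 0.60).

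The 12 genes with the largest difference in each direction were chosen after their values were seen. On the higher side these held Ccn2 and Shroom2 and 10 genes whose sets overlapped. The overlapping genes were led by the red cell genes Slc4a1 (band 3, 1.64 ± 0.87) and Alas2 (haem synthesis, 1.61 ± 0.93). Depp1, a target of FOXO factors, followed at 1.59 ± 0.48, and the granzyme gene Gzmd at 1.55 ± 0.63, with 0.53 for its other probe. Granzyme genes next to it are near copies and can share signal. The neutrophil chemokine Cxcl2 (1.26 ± 0.52), Zxda (1.26 ± 0.41), the neuropeptide Gal (1.18 ± 0.37), Erich5 (1.17 ± 0.38) and the protease inhibitor Slpi (1.16 ± 0.46) completed them with Retnlg. Slc4a1 spanned 5.76 to 12.88 within the high set, and 3 of 9 high tumours lay above every low one.

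On the lower side, Igfbp5, which binds insulin-like growth factors, ran from 5.35 to 9.37 (median 7.34) in the high and from 7.48 to 10.70 (median 8.69) in the low tumours. The difference was -1.27 ± 0.51 (SE, n = 9 and 9), with -1.74 and -1.35 for its other probes, and -1.17 within age and treatment. Slamf9, a receptor of myeloid cells, ran from 7.72 to 9.98 (median 9.90) and from 9.77 to 11.20 (median 10.59), a difference of -1.16 ± 0.29, with 8 of 9 low tumours above every high one. Cd72 was at -1.05 ± 0.26 and the complement gene C4a, which has a near copy, at -1.18 ± 0.41. Angptl7 (-1.35 ± 0.58), the matrix protein Mfap4 (-1.31 ± 0.48), Igf2 (-1.08 ± 0.47), Fam167a (-0.96 ± 0.44) and the chemokine Ccl8 (-0.95 ± 0.46) were the others, beside Cxcl9, Cx3cr1 and Isg15. Within age and treatment the values of Igf2 (-0.34), Mfap4 (-0.60), C4a (-0.55), Angptl7 (-0.83) and Fam167a (-0.49) were nearer to 0, and on the higher side those of Alas2 (1.07), Gzmd (1.01), Gal (0.70) and Slpi (0.66).

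**Figure D5:**
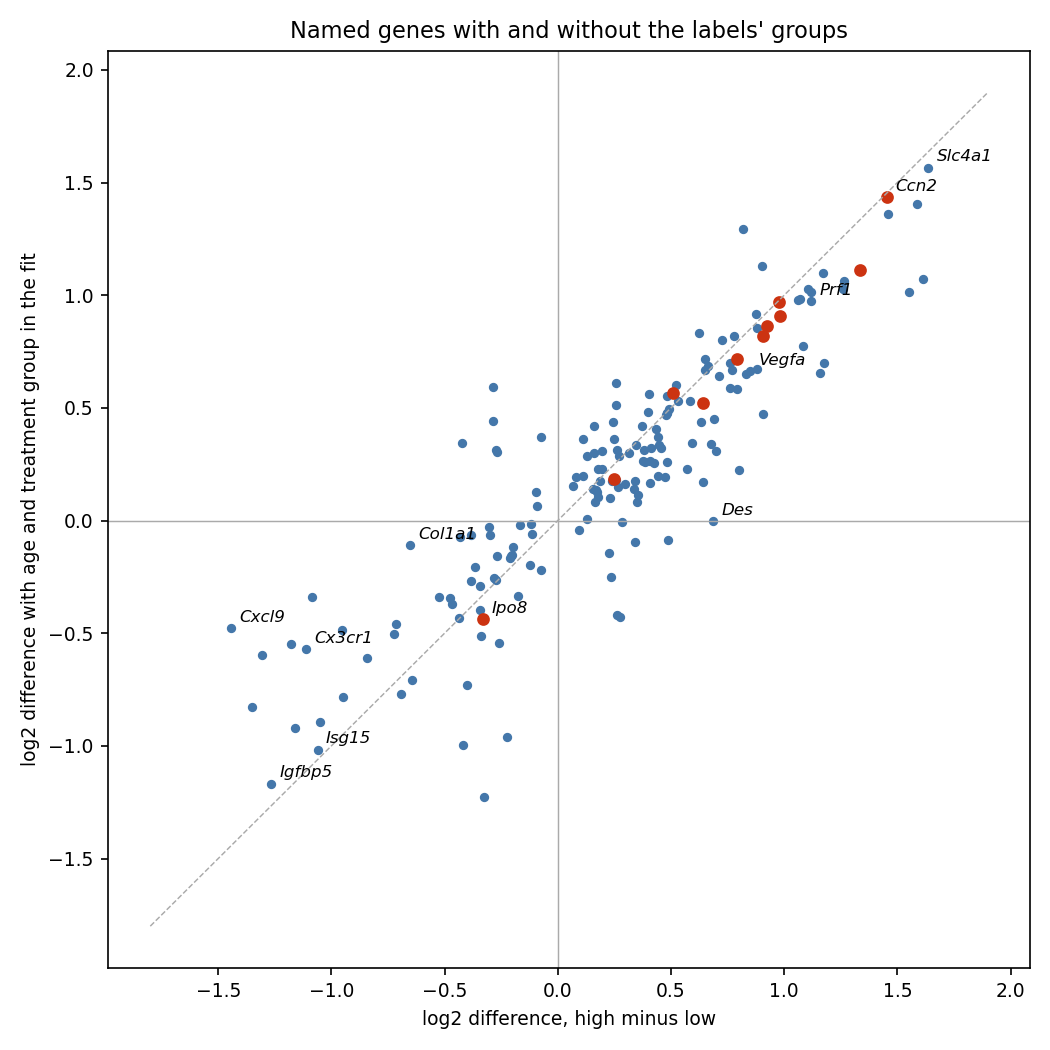
Difference between endothelial-high and endothelial-low tumours for 179 named genes, in log2 units; the x axis holds the plain difference of means and the y axis the difference with the 4 groups of age and treatment in the fit. Red points are the 11 genes without overlap, and the dashed line marks equal values. The red points lie near the line (Ccn2 at 1.46 and 1.43), while Cxcl9 moves from -1.44 to -0.48.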

How the data were processed

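RNA of 30 tumours and of LLC cells (6 arrays) was hybridised to Illumina Mouse WG-6 chips. For each probe the authors deposited a linear, unnormalized intensity and a detection p-value. GenomeStudio is named in the submitters' processing notes, without a version. The authors' normalized intensity stands in another table; the design text speaks of rank variant normalization without defining it, and the lowest value over the 28 tumours is 64.2. It ranked the tumours here, with values floored at 64.

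The rule, the gene lists and the comparisons were chosen with earlier results of these data known. Tumour arrays with a 75th percentile over 110 were kept. Background was corrected by limma's neqc (normexp, offset 16, with the negative controls' mean and spread taken from detection p-values), with quantile normalization over all 36 arrays. The probe with the highest mean over the 28 tumours stood for its gene. A gene was used if its detection p-value was below 0.05 in 5 or more of the 28 tumours: 10864 of 19057 with a probe, 10859 without the score genes. Of 45281 probes, 34885 carried 1 symbol, 18 several and 10378 none in the table used here.

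Differences between sets are means of log2 intensity with the SE of the difference and no test. Those within age and treatment came from a linear model with the 4 groups and the set. Middle-aged unirradiated tumours, with 0 in the high set, add no difference to that model. Named genes were those without overlap (up to 20 higher and 12 lower), up to 6 members per list with the largest difference, and the score genes; other genes, such as Pecam1, Cd93, Unc5b and Slc2a1, were named after their values were seen. The labels' groups were tested with limma 3.58.1 in R 4.3.3 (28 tumours, 4 group means, Benjamini-Hochberg over 10864 genes, threshold 0.05). Labels and files give no chip or batch for tumours. Groups share replicate numbers, but tumours of the same number did not deviate together (34 pairs, r from -0.325 to 0.383, 10 over 0.1), so the numbers were not used as pairs. Procedures were tested on simulated data, with genes that varied independently and sets that did not depend on their values. That check does not cover how many genes lack overlap when sets are cut from the same arrays. Alternatives were other normalizations, filters, probe rules, set sizes and left-out arrays.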

Additional observations from a re-analysis of the deposited data

Results flagged for a closer look

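In all 46 sets of values were looked at. They were the 11 genes without overlap and some lists in each set of 9 tumours, and the score in each of the 4 groups of the labels (5 to 10 tumours). The lists were junction and surface proteins, VEGF and angiopoietin ligands, tip cell, pericyte, red blood cell, neutrophil, macrophage, interferon, hypoxia and skeletal muscle genes. Other genes and lists were not looked at in this way. Of these, 8 had a single tumour far from the rest. About 1 in 20 such sets is picked out by chance, and the cause was not tested for any.

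Young irradiated replicate 2, the bright array of the low set, had the lowest Dock6 of the low tumours (7.78, next 8.13) and the highest Ipo8 (10.32, next 9.91). Middle-aged unirradiated replicate 3, the lowest in score, had the lowest Notch4 (8.56, next 9.11) and the lowest mean of endothelial junction and surface proteins (7.43, next 7.68) of the low tumours. In the high set, young irradiated replicate 7 had the highest Vamp3 (11.74, next 11.54) and young unirradiated replicate 2 the lowest Ipo8 (9.23, next 9.41). The mean of the skeletal muscle genes was 11.34 in young irradiated replicate 1 of the high set (next 6.86) and 9.35 in young unirradiated replicate 3 of the low set (next 7.38).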

How the results depend on the processing

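The direction of the 77 named genes without overlap or with a difference of at least 0.5 was the same wherever they were run, except in fits that hold or restrict age. Only 57 of the 77 were in the setting of detection on all 18 tumours. Leaving out 1 tumour at a time was run for the 11 genes without overlap only. Within age and treatment Des went to -0.0032, and among young tumours only, a check added after the data were seen (8 high, 3 low), Des went to -0.11 and Col1a1 to 0.014. The count of genes without overlap moved from 10 higher and 1 lower to 17 higher with the authors' values, 4 and 3 with median scaling, 117 and 139 for the top 6 against the bottom 6, 0 and 0 for the top 14 against the bottom 14, 6 and 4 with the mean over detected probes, and 3 lower without bright arrays. It was 7 and 1 for genes detected on all 18 tumours. The median of the junction and surface list was 0.28 without background correction and 0.26 with median scaling, and that of the pericyte list 0.48 over members detected on all 18 tumours.

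Leaving out 1 tumour at a time gave 10 to 18 genes higher and 1 to 6 lower, and the 10 and the 1 were among them each time, as they must be with fewer tumours. Higher counts over 1.5 times came without middle-aged unirradiated replicate 4 (18) and young unirradiated replicate 3 (16). For the lower genes they came without young unirradiated replicate 3 (6), without young irradiated replicate 5 (5) or 1 (4), without middle-aged irradiated replicate 2 or 5 or young irradiated replicate 2 (3 each), and without young unirradiated replicate 1, 4, 6 or 9, young irradiated replicate 7 or middle-aged unirradiated replicate 4 (2 each).

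The 29 limma calls with age in unirradiated mice went to 2 with the authors' values, 2 without background correction, 1 with median scaling, 0 over all 30 tumours, 0 without bright arrays, 12 with no filter and 1 with the replicate block. With age in irradiated mice the count of 0 went to 4 with the authors' values, 2 without background correction and 1 over all 30 tumours. The causes were not tested. No pairing of tumours was adopted, and the replicate block changed no other count. The difference of a dim gene understates its change, because an offset is added to every value.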

Other observations

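The tumours with the highest scores, young unirradiated replicates 2 and 10 and young irradiated replicate 7, also held the highest values of several genes that no endothelial list contains. These genes were chosen after their values were seen. The same tumours had the dimmest arrays of the high set, and the part of brightness in these values was not tested. Zxda stood at 12.48, 10.83 and 10.65 in these tumours and at no more than 9.40 in the low set. Erich5 stood at 13.29, 11.98 and 12.03, against at most 10.51, and Prf1 (perforin, the pore-forming protein of killer lymphocytes) at 12.70, 10.97 and 11.16, against at most 9.80. The neuropeptide gene Gal was at 7.99, 7.66 and 7.61, against at most 6.50, and Ccn2 at 11.95, 11.14 and 11.04, against at most 9.63. Zxda, Erich5 and Prf1 were detected on 6 of 6 arrays of LLC cells, at 8.09 to 8.63, 9.30 to 9.80 and 8.88 to 9.67.

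The difference of Prf1 between the sets was 1.12 ± 0.36 (SE, n = 9 and 9), and 0.98 ± 0.47 within age and treatment. The T cell receptor chains Cd3g and Cd3e were at -0.39 ± 0.18 and -0.34 ± 0.18, and the killer cell gene Nkg7 at -0.09 ± 0.30. Within age and treatment these were at -0.06, -0.40 and 0.13, and 2 of the 4 tested lymphocyte genes, Prf1 included, were above 0. Whether Prf1 differs from the others was not tested. Cd3g was detected on 1 of 9 high and 6 of 9 low tumours.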
